A study of Homo sapiens with 9 samples.

Results

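DHRS2, CGA, PADI3, PODXL2 and DEFB1 are 5 of the 16630 genes of an expression table from H1650, an established human line of non-small cell lung cancer. They were picked from these same libraries because they stood high after silencing of all MENA forms and not after silencing of the 11a form alone. Their levels are therefore given as a description, with no test. The data went against that grouping for PODXL2, which stood about as high in both silenced groups, and in part for DEFB1. DHRS2, CGA and PADI3 matched it.

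The study silenced ENAH, the gene for hMENA, a protein of the Ena/VASP family that binds actin filament ends and lets filaments grow longer. Control cells received the ON-TARGETplus non-targeting pool, siMENA cells the siGENOME SMARTpool for human ENAH, which the labels name hMENA(t), and siMENA11a cells a mix of siRNAs that match the 11a exon. All cells were transfected with Lipofectamine RNAiMAX at 20 nM and taken on day 3, with 3 libraries a group, which the series design calls biological replicates. Each target was silenced with 1 preparation, so the preparation and the loss of its target cannot be told apart.

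The 11a exon marks an isoform of hMENA found in epithelial cells, and the other forms are linked to motility and invasion. The 5 genes belong to different families. DHRS2 is a mitochondrial and nuclear short-chain dehydrogenase and is a known response gene of histone deacetylase inhibitors. CGA is the alpha subunit shared by chorionic gonadotropin, luteinizing hormone, follicle-stimulating hormone and thyroid-stimulating hormone, a classic cAMP-driven gene of placenta and pituitary. PADI3 turns arginine into citrulline in structural proteins of hair and skin. PODXL2, also called endoglycan, is a CD34-family sialomucin of the cell surface, and DEFB1 is the beta-defensin that many epithelia make without a stimulus.

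ENAH itself stood at 26.1, 30.04 and 26.1 FPKM (fragments per length of transcript and per size of library) in the control libraries, at 4.43, 5.79 and 5.57 in siMENA and at 9.98, 11.0 and 10.3 in siMENA11a. These are 19.2% and 38.1% of the control mean, for the gene as a whole and not for the 11a exon. FPKM sums ran from 558754 to 592930 per library, and absolute depth is unknown. Of 9 epithelial and lung markers 7 had a row, and their sums ran from 4820 to 5135 FPKM in control, from 4693 to 4893 in siMENA and from 3939 to 4425 in siMENA11a. CDH1 (E-cadherin) and KRT18, both epithelial, fell by 0.42 and 0.40 on the log2(FPKM + 1) scale in siMENA11a against control (adjusted p = 0.00196 and 0.0102, limma). The CDH1 call was lost when repaired values were treated as missing (adjusted p = 0.0888). KRT8 fell there by 0.35 (adjusted p = 0.029), a call lost on leaving out any control replicate or siMENA11a replicate 1 or 2 (0.0531 to 0.0952). EPCAM, KRT7 and KRT19 were at 0.09, 0.07 and -0.10 in siMENA11a and were not called (adjusted p = 0.459, 0.563 and 0.523). All 9 EPCAM values were repaired. KRT7 fell by 0.41 in siMENA (adjusted p = 0.0059), but all 9 of its values were repaired, with no decimal value to check them. None of the 3 fibroblast or 3 endothelial markers with a row reached a mean of 1 FPKM. The leukocyte list had 2 markers with a row, CD14 and CD68, which summed to 14.3 to 19.1 FPKM in control, 13.5 to 16.6 in siMENA and 14.97 to 20.2 in siMENA11a.

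Of 7 neuroendocrine markers 2 had a row, CHGA and SYP, and their sum followed the order of DHRS2, CGA and PADI3 between control and siMENA. It was 2.17 to 2.66 FPKM in control, 3.32 to 3.70 in siMENA and 1.33 to 2.08 in siMENA11a, with no overlap between groups. Such gaps were common among single genes tested. Of these, 23.8% had every siMENA library above every control library, and 28.6% had every siMENA library above every siMENA11a library. The share with every control library above every siMENA11a library was not counted. CHGA (chromogranin A) was not called in siMENA or siMENA11a against control or between the silenced groups (adjusted p = 0.192, 0.825 and 0.087, limma). SYP (synaptophysin, a vesicle protein) rose by 0.35 in siMENA and fell by 0.30 in siMENA11a (adjusted p = 0.0132 and 0.0238). The rise was lost on leaving out control replicate 3 or siMENA replicate 1 (adjusted p from 0.0525 to 0.0528), and the fall on leaving out any of control replicates 2 and 3 and siMENA11a replicate 3 (adjusted p from 0.06 to 0.081). The other 5 markers of that list were not analysed here, and the part of this in the levels of the 5 genes was not tested. In bulk RNA, more cells that make a transcript and more of it per cell cannot be told apart.

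Promoter letters are shown first because the genes differ in what lies just ahead of their RefSeq starts. RefSeq promoters (GRCh38.p14) were matched for 3 of the 5 genes. Printed are 100 bases of DHRS2 (chr14:23630015-23630114, + strand), 30 bases of CGA (chr6:87095221-87095250, - strand) and 100 bases of PODXL2 (chr3:127629081-127629180, + strand), each 5′ to 3′ on the strand of its gene. They begin 100, 144 and 104 bases before the RefSeq start. Capitals mark motif matches.
DHRS2: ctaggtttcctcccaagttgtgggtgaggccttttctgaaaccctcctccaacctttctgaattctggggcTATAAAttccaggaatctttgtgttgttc
CGA: atTGACGTCAtggtaaaaatTGACGTCAtg
PODXL2: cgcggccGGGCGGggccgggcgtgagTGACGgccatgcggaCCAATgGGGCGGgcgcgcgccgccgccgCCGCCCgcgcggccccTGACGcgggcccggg

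The motifs searched, on both strands of the 250 bases before the start, were the cAMP response element TGACGTCA (CRE), its half-site TGACG, the TATA box TATAAA, the GC box GGGCGG and the CCAAT box. A full CRE holds 2 half-sites, 1 on each strand. The run printed for CGA holds 2 full CREs, 142 to 135 and 124 to 117 bases before the start. This start is that of RefSeq. In GENCODE 29 the CGA gene begins farther upstream, at 87095406, so the printed run lies inside the gene as annotated there. Of 27305 RefSeq promoters 1.77% held a full CRE, and 16 of them, or 0.0586%, held 2 or more. CGA also had a TATA box 29 to 24 bases before the start, 1 CCAAT box, and 5 half-sites in all. DHRS2 had a TATA box at the same place, a motif that 11.1% of the promoters held, and no other match. PODXL2 had no TATA match and 6 GC boxes, which 42.3% of promoters held at least once, with 2 half-sites and 2 CCAAT boxes, held by 21.7% and 33.0%. Base composition split the genes the same way. GC content over the 250 bases was 43.2% in DHRS2 and 42.0% in CGA, at percentiles 19.2 and 16.9 of all promoters, and 85.2% in PODXL2, at percentile 99.6, against a median of 58.0%. CpG counts were 0, 4 and 49, against a median of 11. These matches describe letters only, and binding was not measured.

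**Figure D1:**
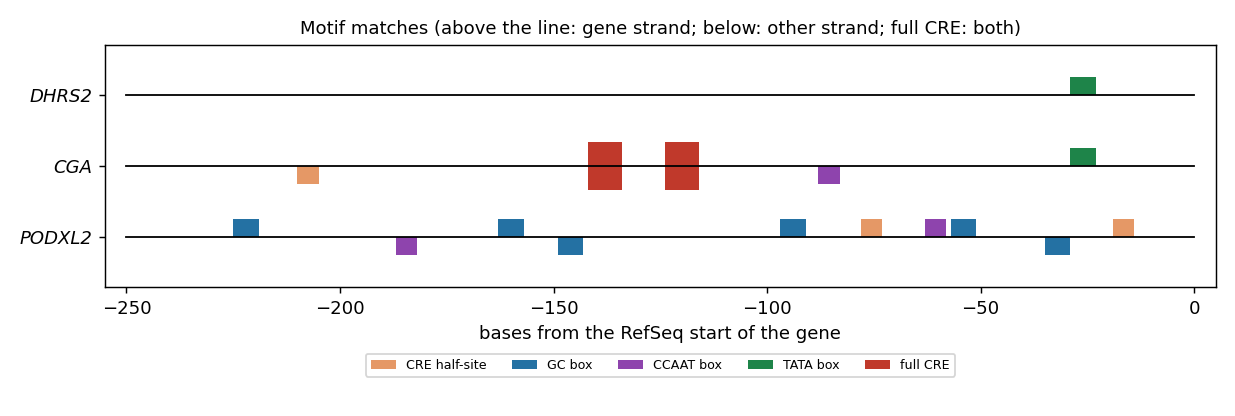
Motif matches in the 250 bases before the RefSeq start of DHRS2, CGA and PODXL2. The x axis gives bases from the start, and boxes above the line lie on the strand of the gene, boxes below it on the other strand, and full CREs on both. CGA shows 2 full CREs, DHRS2 a TATA box alone and PODXL2 6 GC boxes.

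DHRS2 had the widest spread between groups. Its level was 4.43, 6.20 and 5.23 FPKM in control, 43.7, 49.1 and 30.9 in siMENA and 5.57, 5.52 and 5.07 in siMENA11a. The siMENA libraries stood apart, the lowest of them 4.98 times the highest control library, while siMENA11a lay inside the control range. Means were 5.28 ± 0.888, 41.2 ± 9.34 and 5.39 ± 0.273 FPKM (SD, n = 3). The siMENA mean was 7.80 times that of control, and the difference on the log2(FPKM + 1) scale, which understates low genes, was 2.73 (SE 0.15, limma) in siMENA and 0.03 in siMENA11a. Within siMENA the replicates ran from 30.9 to 49.1 FPKM, so the size of the difference is uncertain. Its direction was part of how the gene was chosen. The gene lies on chromosome 14 at 23630115 to 23645639 on the + strand (GENCODE 29, GRCh38), with 10 annotated transcripts of which 6 are coding.

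CGA showed the same order at a lower level. Control libraries held 1.14, 2.21 and 3.30 FPKM, siMENA libraries 15.1, 11.4 and 12.1, and siMENA11a libraries 2.68, 1.71 and 2.59. All siMENA libraries were above all others, and the siMENA11a values fell among the control values. The lowest siMENA library was 3.44 times the highest control library. Means were 2.22 ± 1.08 in control, 12.8 ± 1.95 in siMENA and 2.32 ± 0.537 in siMENA11a (SD, n = 3), a log2 difference of 2.15 (SE 0.23) in siMENA and 0.09 in siMENA11a. Control replicate 1, the lowest, was deposited without its decimal point and was repaired. With that value treated as missing, the differences were 1.89 and -0.17. CGA lies on chromosome 6 at 87085498 to 87095406 on the - strand, with 6 transcripts of which 5 are coding.

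PADI3 had the tightest replicates of the 5. It stood at 3.46, 3.14 and 3.08 FPKM in control, at 11.0, 10.7 and 9.93 in siMENA and at 2.77, 2.54 and 3.33 in siMENA11a. Again only the siMENA libraries were high, and siMENA11a overlapped control at a slightly lower mean. The means were 3.23 ± 0.201, 10.5 ± 0.560 and 2.88 ± 0.407 FPKM (SD, n = 3). The siMENA mean was 3.27 times that of control, with log2 differences of 1.45 (SE 0.09) in siMENA and -0.13 in siMENA11a. The gene lies on chromosome 1 at 17249098 to 17284233 on the + strand, has 1 transcript and holds the microRNA gene MIR3972.

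PODXL2 did not keep to siMENA. Control libraries held 3.27, 3.70 and 3.72 FPKM, siMENA libraries 9.73, 9.17 and 8.70, and siMENA11a libraries 7.98, 9.88 and 8.004. Both silenced groups lay wholly above control and overlapped each other, and the highest value of all was a siMENA11a library. Means were 3.56 ± 0.254, 9.20 ± 0.513 and 8.62 ± 1.09 FPKM (SD, n = 3), so the siMENA11a mean exceeded control by 89.75% of the siMENA excess. The log2 differences were 1.16 in siMENA and 1.07 in siMENA11a (SE 0.09), and the difference between the silenced groups was -0.09. The gene lies on chromosome 3 at 127629181 to 127672809 on the + strand, with 1 transcript.

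**Figure D2:**
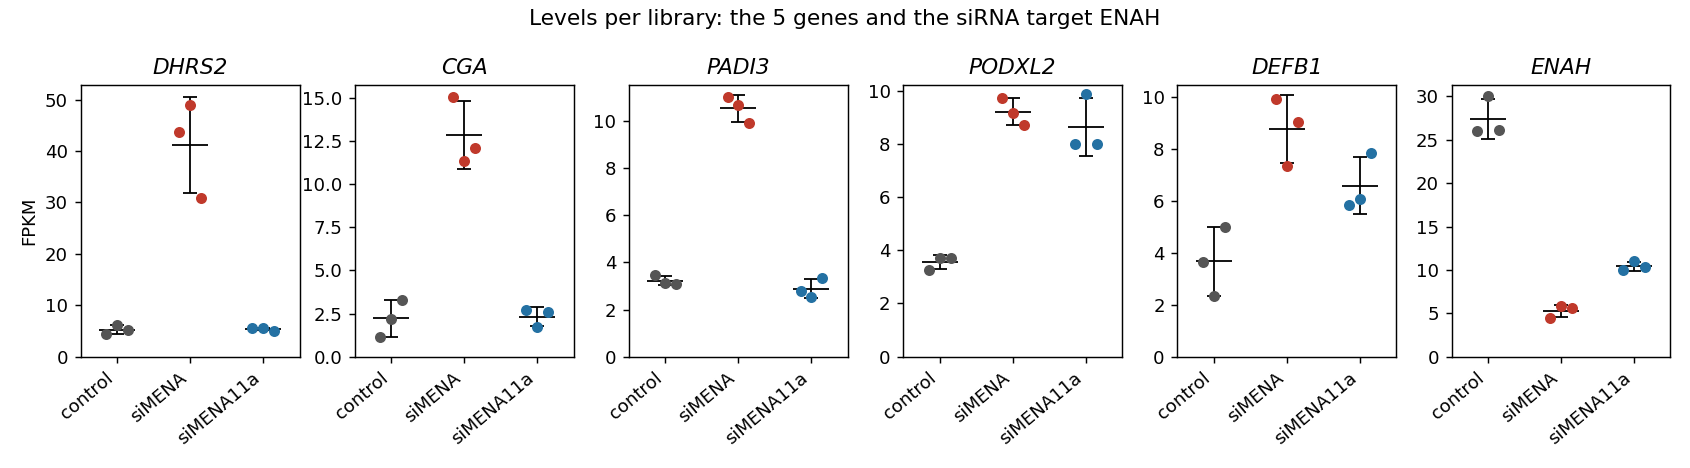
FPKM of the 5 genes and of ENAH in each library, 3 per group, on axes that start at 0 and differ between panels. Points are libraries, and black bars give the mean and SD of each group. DHRS2, CGA and PADI3 are high in siMENA alone, PODXL2 is high in siMENA and siMENA11a, DEFB1 lies between in siMENA11a, and ENAH is lowest in siMENA.

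DEFB1 was intermediate. It stood at 3.66, 2.35 and 5.00 FPKM in control, at 9.92, 7.34 and 9.05 in siMENA and at 5.84, 6.08 and 7.86 in siMENA11a. Each silenced group lay above control, by a narrow margin in siMENA11a, whose lowest library was 1.17 times the highest control library. The highest siMENA11a library exceeded the lowest siMENA library. Means were 3.67 ± 1.32, 8.77 ± 1.31 and 6.59 ± 1.10 FPKM (SD, n = 3), and the siMENA11a excess over control was 57.32% of the siMENA excess. The log2 differences were 1.10 in siMENA and 0.73 in siMENA11a (SE 0.19), and -0.36 between siMENA11a and siMENA. Leaving out single libraries moved these from 0.88 to 1.30 and from 0.51 to 0.93. The gene lies on chromosome 8 at 6870575 to 6878022 on the - strand, with 1 transcript, and GS1-24F4.2 overlaps it on the other strand.

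Counted over the 5 genes, every siMENA library was above every control library in 5, against 23.8% of the 13273 genes tested. Every siMENA11a library was above every control library in 2, PODXL2 and DEFB1, against 16.6%. Every siMENA library was above every siMENA11a library in 3, DHRS2, CGA and PADI3, against 28.6%. These counts follow from how the genes were chosen. For those 3 the log2 differences of siMENA11a from siMENA were -2.70, -2.06 and -1.58. Ordered by siMENA level the genes ran DHRS2, CGA, PADI3, PODXL2 and DEFB1, and of the neighbours in that order only PODXL2 and DEFB1 overlapped. In siMENA11a the order was PODXL2, DEFB1, DHRS2, PADI3 and CGA, where only PADI3 and CGA overlapped. In control it was DHRS2, DEFB1, PODXL2, PADI3 and CGA, and each overlapped the next.

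**Figure D3:**
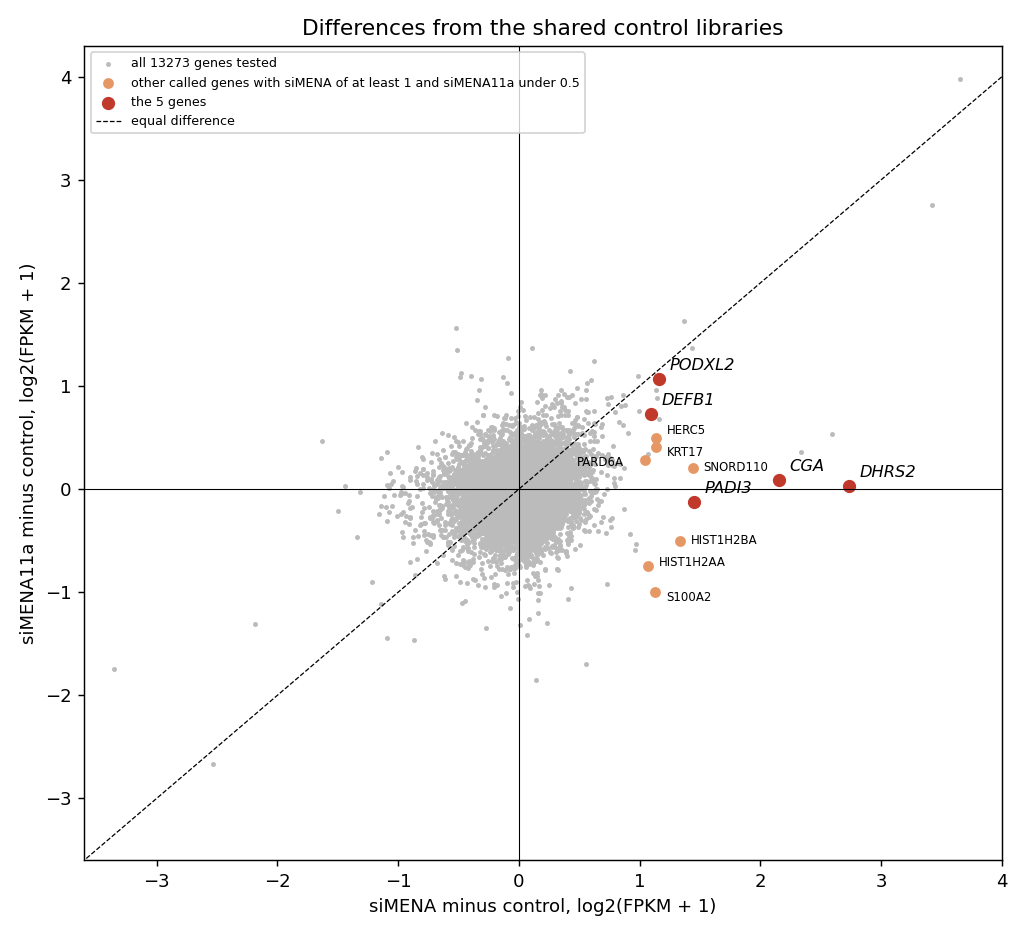
Difference from control on the log2(FPKM + 1) scale in siMENA (x axis) and siMENA11a (y axis) for all 13273 genes tested, in grey, with the 5 genes in red and other called genes of at least 1 in siMENA and under 0.5 in siMENA11a in orange. Both axes share the control libraries, and the dashed line marks equal differences. DHRS2, CGA and PADI3 lie near 0 on the y axis, and PODXL2 lies close to the dashed line.

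The genes around the 5 were read from lists of related genes, with limma over all 13273 genes and a call at an adjusted p under 0.05 (Benjamini-Hochberg). Of all genes, 10.3% were called higher and 8.24% lower in siMENA against control, with a median difference of 0.04 on the log2 scale. In siMENA11a against control the shares were 8.16% and 11.3%, with a median of -0.01, and in siMENA11a against siMENA 14.4% and 22.2%, with a median of -0.05. The split of calls depended on scaling. Lower calls made up 44.4% of the calls in siMENA against control as deposited and 56.1% after median-ratio scaling, and 60.6% and 49.6% in siMENA11a against siMENA. The 2463 calls of siMENA against control dropped to 1555 and 1445 on leaving out control replicates 1 and 3 and to 1343 and 1570 on leaving out siMENA replicates 1 and 2, and the 2583 of siMENA11a against control to 1500 without control replicate 3. Both comparisons with control share the same control libraries.

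Short-chain dehydrogenases and reductases other than DHRS2 showed no common direction. Of 35 tested, 2 rose and 4 fell in siMENA against control, with a median of -0.01, and 3 rose and 3 fell in siMENA11a, with a median of -0.03. RDH10, a retinol dehydrogenase, rose from 10.9 ± 0.110 to 16.4 ± 1.21 FPKM in siMENA (log2 difference 0.54, adjusted p = 0.00289) and fell to 8.14 ± 1.00 in siMENA11a (-0.39, adjusted p = 0.0118). RDH11, a retinal reductase, fell from 46.2 ± 1.44 to 28.6 ± 0.526 FPKM in siMENA (-0.67, adjusted p = 2.45e-05) and was 43.5 ± 0.381 in siMENA11a. CBR3, a carbonyl reductase, and DHRS1 fell in siMENA, by 0.69 and 0.62 on the log2 scale (adjusted p = 0.00849 and 0.00123). DHRS9, which acts on retinol and steroids, rose in siMENA11a, by 0.63 (adjusted p = 0.000154), and was -0.11 in siMENA. DHRS4, the nearest relative in position, was -0.10 and -0.09, but it shares sequence with DHRS4L2, so its reads may be split.

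Histone deacetylases and genes that their inhibitors raise were listed because DHRS2 is such a gene. In siMENA 4 of 16 rose and 0 fell by limma, with 6 at an unadjusted p under 0.05 and a median of 0.11. In siMENA11a 3 rose and 3 fell, with a median of -0.07. Of all genes 10.3% were called higher in siMENA, and 8.16% higher and 11.3% lower in siMENA11a. HDAC9 rose from 6.94 ± 0.444 FPKM to 12.2 ± 0.564 in siMENA and 13.1 ± 0.495 in siMENA11a (log2 differences 0.74 and 0.82, adjusted p = 0.000108 and 6.91e-05). CLU, the chaperone clusterin, rose by 0.49 and 0.54 (adjusted p = 0.0125 and 0.00779). TXNIP, an inhibitor-induced partner of thioredoxin, rose by 0.90 in siMENA11a (adjusted p = 0.000576). Its rise of 0.40 in siMENA and that of HDAC1, 0.20, were lost on leaving out any of siMENA replicates 1 and 2 and control replicate 3, and also on leaving out control replicate 2 for TXNIP and 1 for HDAC1 (adjusted p from 0.0593 to 0.0919). That of HDAC1 was also lost with repaired values as missing (adjusted p = 0.256). HDAC3 and HDAC1, the deacetylases of the main nuclear corepressors, fell by 1.08 and 0.48 in siMENA11a (adjusted p = 0.000185 and 0.000263). HDAC3 was 27.8 ± 2.11 FPKM in control, 31.1 ± 0.661 in siMENA and 12.7 ± 2.11 in siMENA11a. CDKN1A, a cell cycle inhibitor, was the other gene that fell there, by 0.22. Its call was lost on leaving out any silenced library or any of control replicates 2 and 3 (adjusted p from 0.0635 to 0.166), and also with no filter, median-ratio scaling or repaired values as missing (adjusted p from 0.0501 to 0.0552). H1F0 and GSN, other genes known for induction by such inhibitors, were -0.21 and 0.05 in siMENA (adjusted p = 0.0595 and 0.737), and all 9 values of H1F0 were repaired.

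Partners of CGA were scarce. Of 14 other hormone subunits and receptors, 4 had a row and 1 was tested, CGB7, a chorionic gonadotropin beta subunit, at 1.41 ± 0.479, 0.886 ± 0.271 and 1.16 ± 0.133 FPKM in the 3 groups. Its difference of -0.34 in siMENA was not called (adjusted p = 0.144), and 1 of 1 had an unadjusted p under 0.05. The beta subunits are near-identical copies, so this value is uncertain. LHB, GPHA2 and TSHR stayed below the filter of 0.5 FPKM on the mean or had missing values. The single highest value among them was 1.28 FPKM, for LHB in siMENA11a replicate 1.

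Trophoblast genes and regulators of CGA did not move together. Of 13 tested, 1 rose and 1 fell in siMENA, with a median of 0.06, and 2 rose and 2 fell in siMENA11a, with a median of -0.03. JUN, which can bind CRE-like sites, rose in both, by 0.49 and 0.36 (adjusted p = 0.00126 and 0.00545). GATA2 fell by 0.30 in siMENA, a call lost on leaving out any of control replicates 1 and 3 and siMENA replicates 1 and 2 (adjusted p from 0.056 to 0.0687) or treating repaired values as missing (0.0951), and GATA3 rose by 0.57 in siMENA11a, a call lost without any 1 of its 6 libraries (adjusted p from 0.0549 to 0.123). ATF1 and ATF2, factors that bind CREs, each fell by 0.53 in siMENA11a (adjusted p = 0.000191 and 0.00108). CREB1, the main CRE-binding factor, was 10.3 ± 0.240, 10.1 ± 0.0474 and 11.1 ± 0.176 FPKM in control, siMENA and siMENA11a. The 3 trophoblast markers with a row summed to 1.49 to 2.26 FPKM in control, 1.81 to 2.49 in siMENA and 1.43 to 2.41 in siMENA11a, and PAPPA alone reached a mean of 1 FPKM.

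Most genes known to answer cAMP were not called against control, and those called were higher. In siMENA 5 of 17 rose and 0 fell by limma, with 7 at an unadjusted p under 0.05 and a median of 0.18. In siMENA11a 2 of 17 rose and 0 fell, with 4 at an unadjusted p under 0.05 and a median of 0.13. Of all genes 10.3% were called higher in siMENA and 8.16% in siMENA11a, each against control. NR4A2, an orphan nuclear receptor, rose from 0.627 ± 0.223 to 1.69 ± 0.557 FPKM in siMENA (log2 difference 0.72, adjusted p = 0.0118). RGS2, which damps G protein signals, was 0.28, 0.56 and 0.81 FPKM in control and 1.45, 1.33 and 1.40 in siMENA (0.64, adjusted p = 0.00645), with 0.652 ± 0.0642 in siMENA11a. NR4A1 rose by 0.76 in siMENA, which was lost without control replicate 2 or siMENA replicate 3 (adjusted p = 0.0502 to 0.0555), and stood 1.13 lower in siMENA11a than in siMENA (adjusted p = 0.00113). SIK1, a kinase, and PDE4B, which breaks down cAMP, rose by 0.36 and 0.32. Both calls were lost on leaving out any siMENA replicate, siMENA11a replicate 1 or any of control replicates 1 and 3, and that of PDE4B also without control replicate 2 (adjusted p from 0.0545 to 0.157). With no filter on low values both were lost too, and PDE4B also after median-ratio scaling and with repaired values as missing (adjusted p from 0.0505 to 0.0687). FOS, an early cAMP target, was 54.4, 24.4 and 46.9 FPKM in control and 26.1, 22.2 and 47.9 in siMENA, with no call (adjusted p = 0.517). ATF3 and NFIL3 rose in siMENA11a by 0.27 and 0.30 (adjusted p = 0.0105 and 0.0303), and the NFIL3 call was lost on leaving out any of control replicates 1 and 3 and siMENA11a replicates 1 and 2 (adjusted p from 0.0776 to 0.0961) or treating repaired values as missing (0.0808).

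Relatives of PADI3 lie next to it on chromosome 1. PADI2 stood at 2.42 ± 0.642, 3.48 ± 0.503 and 2.29 ± 0.273 FPKM and PADI1 at 0.472 ± 0.0518, 0.662 ± 0.0802 and 0.447 ± 0.0792 in control, siMENA and siMENA11a. Both were highest in siMENA, like PADI3, but 0 of 2 were called against control in either comparison by limma. An unadjusted p under 0.05 was reached by 1 in siMENA and 0 in siMENA11a. PADI2 was 0.44 lower in siMENA11a than in siMENA (adjusted p = 0.0344), which was lost without siMENA replicate 1 or 3 or any single siMENA11a replicate (adjusted p from 0.0557 to 0.106) and after median-ratio scaling (0.0539). PADI4 stayed under the filter, with at most 0.115 FPKM.

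Proteins that PADI3 modifies and other genes of cornification, the hardening of skin and hair cells, split. Of 13 tested, 2 rose and 3 fell in siMENA, with a median of -0.13. In siMENA11a 0 were called by limma, 1 had an unadjusted p under 0.05, and the median was -0.20. KRT17, a keratin of hair follicles and stressed epithelium, rose from 0.672 ± 0.236 to 2.77 ± 1.21 FPKM in siMENA (1.14, adjusted p = 0.0103), with 1.27 ± 0.665 in siMENA11a. CASP14, the caspase of cornification, fell from 37.4 ± 2.91 to 22.8 ± 5.74 FPKM in siMENA (-0.71, adjusted p = 0.00854), a call lost when repaired values were treated as missing (adjusted p = 0.104). The cross-linking enzyme TGM1 rose by 0.42, and the skin proteases KLK5 and KLK7 fell by 1.01 and 0.72, in siMENA. These 3 calls were each lost on leaving out any of control replicates 1 and 3 and siMENA replicates 1 and 2 (adjusted p from 0.0515 to 0.106), and 8 of the 9 KLK5 values were repaired. Of the known substrates, S100A3 was 0.807 ± 0.107, 1.13 ± 0.533 and 0.407 ± 0.218 FPKM, and FLG and TCHH were listed below the filter.

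The list around PODXL2 moved in both directions. Of 14 tested sialomucins, partners and selectin-ligand enzymes, 1 rose and 2 fell in siMENA, with a median of -0.07, and 1 rose and 1 fell in siMENA11a, with a median of 0.00. PODXL, the closest relative, was 1.44 ± 0.180, 1.30 ± 0.225 and 1.80 ± 0.473 FPKM in control, siMENA and siMENA11a and was not called. The linkers RDX (radixin) and EZR (ezrin), which tie such proteins to actin, fell in siMENA, by 0.47 and 0.35 (adjusted p = 0.00145 and 0.0049). They were 0.05 and -0.03 in siMENA11a, in which PODXL2 overlapped siMENA. Of the 9 values of EZR 6 were repaired, and its call could not be run with these as missing. ST3GAL4, a sialyltransferase for selectin ligands, rose by 0.29 in siMENA (adjusted p = 0.0123). In siMENA11a CD164 rose by 0.18 and SLC9A3R2 fell by 0.35. CD164 was lost without any single control replicate or siMENA11a replicate 1 (adjusted p from 0.0503 to 0.0855), and SLC9A3R2 on leaving out any of control replicates 1 and 2 and siMENA11a replicates 2 and 3 (0.0831 to 0.1).

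Few other antimicrobial genes were measured. Of 31 other antimicrobial genes and receptors on the list 10 had a row and 9 were tested, none of them a defensin. In siMENA 2 rose and 2 fell, with a median of 0.05. In siMENA11a 0 were called by limma, 4 had an unadjusted p under 0.05, and the median was 0.18. CAMP, the cathelicidin precursor, rose from 3.44 ± 0.903 to 6.43 ± 0.996 FPKM in siMENA (0.75, adjusted p = 0.009) and was 2.59 ± 0.397 in siMENA11a. PI3, the protease inhibitor elafin, rose by 0.62 (adjusted p = 0.0141), with 8 of 9 values repaired. S100A8, a calprotectin subunit, fell from 356 ± 5.80 to 127 ± 21.8 FPKM in siMENA (-1.50, adjusted p = 0.000149), while its partner S100A9 was 1065 ± 78.8 and 1103 ± 26.4 FPKM. Of the S100A8 values 8 of 9 were repaired, so neither its call nor that of PI3 could be run with repaired values as missing. SLPI fell by 0.36 in siMENA, which was lost on leaving out any siMENA replicate or any of control replicates 1 and 3 (adjusted p from 0.0603 to 0.107).

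**Figure D4:**
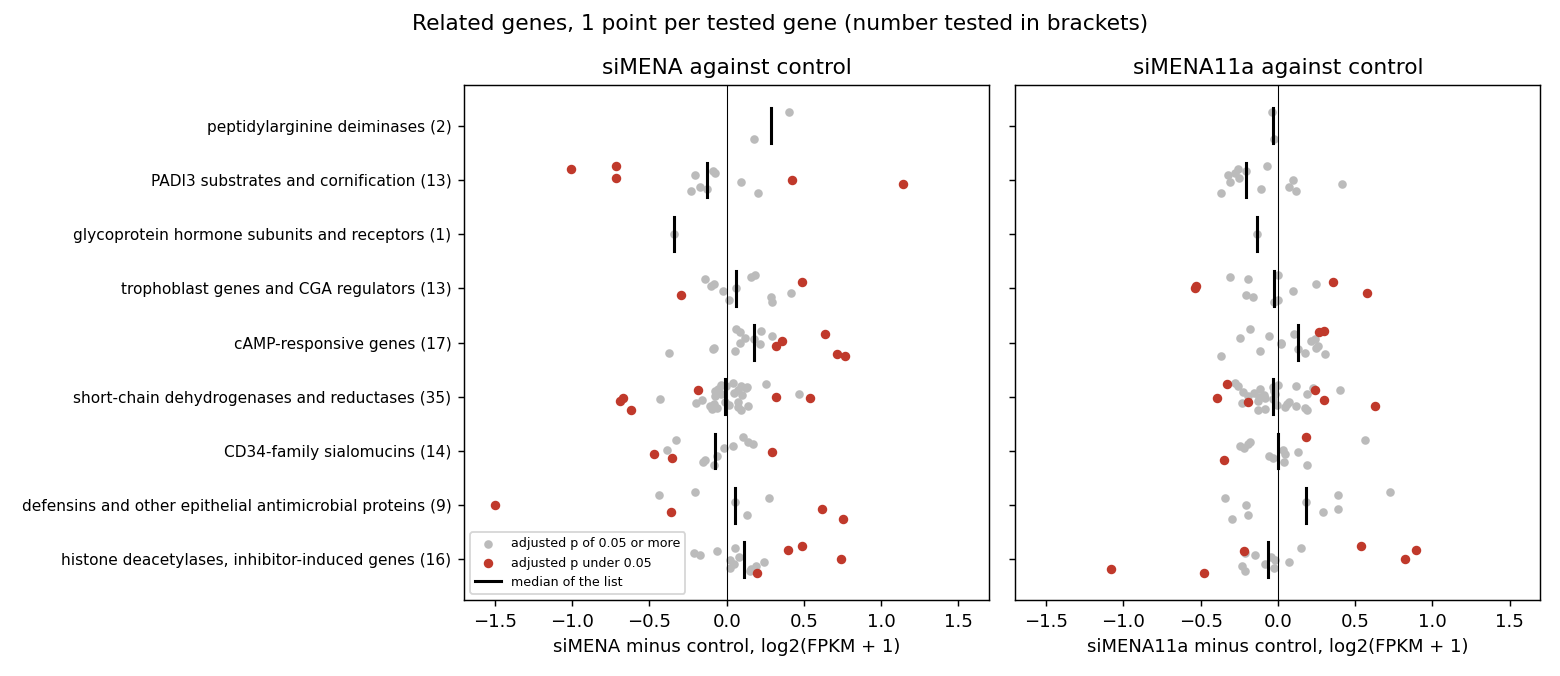
Differences from control on the log2(FPKM + 1) scale for the tested genes of each list, in siMENA (left) and siMENA11a (right). Each point is 1 gene, red where the adjusted p was under 0.05, and the black bar is the median of the list. Of the 17 points of the cAMP list 5 are red in siMENA, all above 0. The other lists with several calls in that panel, apart from the deacetylase list, have red points on both sides.

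Few genes showed the size of difference seen in DHRS2, CGA and PADI3. With a call and a log2 difference of at least 1 in siMENA against control there were 15 genes, and 10 of these were under 0.5 in siMENA11a. They were DHRS2, CGA, PADI3, HERC5, HIST1H2AA, HIST1H2BA, KRT17, PARD6A, S100A2 and SNORD110. All 10 were found on the same comparisons, so no p is given for the members here. The siMENA call of S100A2 was lost on leaving out any of control replicates 1 and 3 and siMENA replicates 1 and 2 (adjusted p from 0.0954 to 0.109), and that of SNORD110 on leaving out control replicate 2 or any siMENA replicate (0.056 to 0.087). PARD6A, a polarity protein, was 2.14, 2.24 and 2.89 FPKM in control, 7.59, 4.65 and 6.20 in siMENA and 2.47, 4.20 and 2.95 in siMENA11a. S100A2, an epithelial calcium-binding protein, had means of 18.5 ± 8.38, 41.0 ± 13.9 and 8.39 ± 2.26 FPKM. HERC5, an interferon-induced ligase, had means of 15.4 ± 3.26, 35.8 ± 11.8 and 22.6 ± 7.53 FPKM. HERC5, KRT17 and S100A2 were each highest in replicate 2 of all 3 groups. DHRS2 was highest in replicate 2 of control and siMENA, and in siMENA11a replicate 2 was just under replicate 1. The histone genes HIST1H2AA and HIST1H2BA have close copies and are uncertain, and SNORD110 is a small nucleolar RNA of whose 9 values 6 were repaired.

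Just below the first limit lay SEMA7A, COL5A2 and IGSF23, at 0.97, 0.96 and 0.92 in siMENA and -0.54, -0.59 and -0.44 in siMENA11a. SEMA7A, a membrane semaphorin, was 4.49 ± 0.231 FPKM in control, 9.79 ± 1.10 in siMENA and 2.80 ± 0.387 in siMENA11a. Just over the second limit lay RPL36A-HNRNPH2 at 0.68, DEFB1 at 0.73 and OASL at 0.96. The siMENA call of RPL36A-HNRNPH2, a read-through gene, was lost on leaving out any of replicates 1 and 2 of control and siMENA (adjusted p from 0.0583 to 0.08). DEFB1 therefore missed the pattern by a small step and PODXL2, at 1.07, by a larger one. The scale understates low genes, so the limit does not part the genes by fold. KRT17, inside at 0.413, had a siMENA11a mean 1.89 times that of control, and DEFB1, outside, 1.80 times. HERC5 lay inside at 0.497, with a mean 1.47 times that of control.

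Likeness over the 9 libraries was measured as the Pearson correlation of log2(FPKM + 1) with 11915 tested genes of at least 1 FPKM, as a description. The libraries share their groups, so any gene high in siMENA and not in siMENA11a correlates with DHRS2. The closest to DHRS2 were TOMM34 (0.994), SERPINB9 (0.990), PSMA3 (0.986), ANAPC1 (0.985) and PRPF4 (0.984). To CGA they were PCYOX1 (0.982), DCTN5 (0.980), SEMA3A (0.980), C14orf166 (0.980) and PSMA3 (0.979), so PSMA3 was on both lists. To PADI3 they were ACO1 (0.993), C11orf48 (0.993), CDK5RAP1 (0.992), LPHN2 (0.990) and UBE2D4 (0.987). All these genes differed less than the 3 genes they resembled. TOMM34 was 24.0, 30.9 and 24.1 FPKM on average in control, siMENA and siMENA11a, and SERPINB9, with the widest change among them, was 1.60, 3.53 and 1.65.

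PODXL2 and DEFB1 had other close genes. PODXL2 was nearest to TNFSF15 (0.979), SEPT2 (0.972), SDCBP (0.972), ITGA2 (0.971) and RPAIN (0.971), whose means were also higher in both silenced groups than in control. ITGA2, the collagen receptor subunit alpha 2, had means of 29.5, 48.1 and 46.4 FPKM, with log2 differences of 0.69 and 0.63. DEFB1 was nearest to RIOK2 (0.979), CDC14A (0.966), ISY1-RAB43 (0.965), TPMT (0.963) and H2AFY (0.950). TPMT, which methylates thiopurines, had differences of 0.37 and 0.29.

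Neighbours on the chromosome were read next. The 3 nearest RefSeq protein-coding genes on each side of the 5 gave 30 genes, of which 22 had a row and 16 were tested. In siMENA against control 0 of 16 were called by limma, against 10.3% higher and 8.24% lower of all genes. An unadjusted p under 0.05 was reached by 3, and the median was 0.03. In siMENA11a against control 0 were higher and 1 was lower, RCC2 at -0.21, a call lost on leaving out any control replicate, siMENA replicate 2 or any of siMENA11a replicates 2 and 3 (adjusted p from 0.055 to 0.138) and after median-ratio scaling (0.0529), with 4 at an unadjusted p under 0.05. Of all genes 8.16% were called higher and 11.3% lower in that comparison. In siMENA11a against siMENA 1 of the 16 was higher and 2 were lower, with 4 at an unadjusted p under 0.05. The shares of all genes there were 14.4% higher and 22.2% lower. The calls were ZNF292 near CGA at 0.21, and SDHB and PADI2 near PADI3 at -0.32 and -0.44. The PADI2 call was lost as described for the relatives of PADI3. ZNF292 was lost on leaving out control replicate 3 or any of siMENA replicates 1 and 2 and siMENA11a replicates 2 and 3 (adjusted p from 0.0599 to 0.129), and the SDHB call (adjusted p = 0.00373) was lost with repaired values as missing (0.0675).

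By gene, the differences of the tested neighbours in siMENA against control were as follows. Near DHRS2, AP1G2, DHRS4 and DHRS4L2 were at 0.06, -0.10 and -0.06. Near CGA, SNX14, SYNCRIP and ZNF292 were at -0.01, 0.03 and -0.07, and C6orf162 was at 0.22. Near PADI3, PADI2 was at 0.40, the widest of the 16, with PADI1 at 0.17, SDHB at 0.14 and RCC2 at -0.13. Near PODXL2, TPRA1, MCM2 and ABTB1 were at -0.02, 0.04 and 0.00. MGLL, the enzyme that splits monoacylglycerols, was at 0.19 in siMENA and 0.23 in siMENA11a, both uncalled (adjusted p = 0.126 and 0.0694). AGPAT5, near DEFB1, was at 0.04.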

How the data were processed

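Total RNA of 9 H1650 libraries was depleted of ribosomal RNA and read in pairs after a stranded kit, per the labels' protocols. The authors deposited 1 table of FPKM values for 16630 genes. The build is hg19 per the submitters' processing notes. For alignment, quantification and annotation, tools and versions were not given in the sources used here. Gene positions are from GENCODE 29 and were not used for levels.

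Some FPKM cells, as deposited, lacked the decimal point. Of 11543 whole-number values, 11524 (7.7% of 149670) were divided by 1000, 16 near the other values of their gene and 3 zeros were kept, and for 237 genes no cell with decimals allowed a check. Among the 5 genes 1 value was repaired. Groups came from the sample labels. Left out were 1286 genes that lacked a value in some library. Those with a mean of 0.5 FPKM or more, 13273 in all, were tested as log2(FPKM + 1) with limma 3.58.1 in R 4.3.3, in 1 fit over 9 libraries with group as the only term and a mean-variance trend, Benjamini-Hochberg adjustment and a threshold of 0.05. The steps were tested on simulated data. P-values measure the spread between these libraries. The table holds no counts, so depth and its precision are unknown.

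The 5 genes and all lists were chosen with earlier results of these data known. 1 of the lists is not reported here. Named genes are the 5, ENAH, the 5 genes most correlated with each, the genes of at least 1 in siMENA and under 0.5 in siMENA11a with the 3 nearest to each limit, and up to 4 called genes per list and comparison with the largest change. Others, such as markers, neighbours and list genes without a call, were named after their values were seen.

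The labels number the replicates alike in each group and do not say what a number marks. Deviations from the group means correlated between same-numbered libraries at 0.124, 0.378 and 0.196 for control and siMENA, which counts as pairing by the rule used (each over 0.1). They were 0.206, 0.425 and -0.0302 for control and siMENA11a, and 0.0863, 0.309 and 0.0203 for siMENA and siMENA11a, which do not pass that rule. Some unlike numbers also passed 0.1, such as control 1 with siMENA 3 (0.113) and with siMENA11a 3 (0.321). In each pair of groups the highest value was between the libraries numbered 2. These correlated negatively with every library of another number in the other groups. The rule therefore does not settle what the numbers mark. Alternatives were a pseudocount of 0.1, filters of 0 or 2 FPKM, median-ratio scaling, a replicate block, repaired values as missing, and leaving out each library.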

Additional observations from a re-analysis of the deposited data

How the results depend on the processing

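All 5 genes kept the direction of each difference of at least 0.5 under every alternative run. The rise in siMENA was part of how they were chosen, so its kept direction is a description and gives no support. The filters did not change their values. With a pseudocount of 0.1 FPKM the log2 difference in siMENA against control moved to 2.59 for CGA, 1.68 for PADI3 and 1.35 for PODXL2. In siMENA11a against siMENA it moved to -2.43 for CGA and -1.84 for PADI3, and in siMENA11a against control to 1.25 for PODXL2. A replicate block left these differences as they were and gave 3149 calls in siMENA and 3431 in siMENA11a against control and 5648 between the silenced groups, where the fit without it gave 2463, 2583 and 4857. Leaving out single libraries gave 1343 to 2903 and 1500 to 2484 calls for the comparisons with control. Of 157 calls of named or listed genes 0 were lost with the block or the pseudocount of 0.1, 12 with median-ratio scaling and 10 without a filter. With the filter of 2 FPKM 144 of them could be run and 0 of these were lost, and with repaired values as missing 148 could be run and 16 were lost. Leaving out each library in turn took away more of the 157 calls. For at least 1 left-out library, 19 of 51 were lost in siMENA against control. In siMENA11a against control 18 of 35 were lost, and in siMENA11a against siMENA 26 of 71. With 3 libraries a group and no counts, small differences in low genes cannot be judged.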
